A study of Homo sapiens with 8 samples.

Results

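The 32 genes described here are targets or components of the unfolded protein response and of its ATF4 branch. They were taken from a list of named genes and followed in PC9R and PC9 cells. Both are human lung adenocarcinoma lines. PC9 depends on a mutated, active EGFR and responds to gefitinib, an inhibitor of that kinase. PC9R cells were those selected from PC9 by gefitinib for 1 to 2 weeks, and the labels do not say whether they are 1 clone or whether drug was present at harvest. Both lines were used at passages 8 to 12, and the labels name no introduced gene or deletion in either. Each line gave 2 RNA-seq libraries, 1 DNase hypersensitive site (DHS) peak list and 1 H3K4me2 peak list, 8 samples in all. The RNA files held 23371 genes, where the 32 were found by symbol, and 26 of them passed the filter on low counts. The comparison asks which of these stress genes differ between the gefitinib-selected line and the line it came from.

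Proteins that fail to fold in the endoplasmic reticulum (ER) are sensed by IRE1, PERK and ATF6. IRE1 splices the XBP1 message and ATF6 is cut to release a transcription factor, and both raise the genes for ER chaperones and for ER-associated degradation. PERK and related kinases phosphorylate the translation factor eIF2-alpha, which favours translation of ATF4, and ATF4 then raises genes for amino acid supply, stress effectors and other transcription factors. The pathway is active at some level in most secretory epithelial cells and in many carcinomas.

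Once the library number was a term of the fit, several genes were lower in PC9R than in PC9. They were several ER chaperones, the degradation factor EDEM1, and the serine synthesis enzymes PHGDH and PSPH. Counts of XBP1, all from 1 of its 2 transcript accessions, were lower too, and the degradation adaptor SEL1L was higher. ATF4, its sister transcription factors and its stress effectors showed no difference that passed a test. How firmly these can be stated depends on the libraries. With no batch term, edgeR's quasi-likelihood test with Benjamini-Hochberg adjustment over all 12660 genes tested called none of the 26 genes, against 0.253% of all genes (0.190% higher and 0.0632% lower). The smallest adjusted p among the 26 was 0.491, and 4 had an unadjusted p under 0.05, against 7.27% of all genes. DESeq2 and limma-voom also called 0 of the 26. With the library number, first or second, as a batch term in the same test, 8 of the 26 passed as lower in PC9R (30.8%) against 9.57% of all genes. In that fit 1 of the 26 passed as higher, against 11.2% of all genes, and 17 did not pass in either direction. The median log2 fold change, PC9R minus PC9, was -0.36 over the 26 genes and -0.01 over all genes tested with the batch term, and -0.41 and -0.01 without it.

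The first libraries were deeper than the second. PC9R had totals of 32502455 counts in its first library and 16715426 in its second, and PC9 had 32515891 and 16013058. Second and first libraries also differed along transcript GC content in both lines. The median log2 difference, second minus first, was 0.90 in the lowest of 4 equal groups of genes by GC content and -1.13 in the highest. The labels name no batch and leave unsaid whether a line's libraries come from separate cultures. The p-values then reflect the spread between these libraries alone, which may be technical. The batch-term fit has 1 residual degree of freedom, so most of the spread it uses is borrowed from other genes. Values are therefore given for each library and within the first and the second libraries. The 7 epithelial and lung markers summed to 18812 and 10756 CPM in PC9R against 24186 and 10552 CPM in PC9. Of the 6 tested, 5 had a negative fold change and none of those passed. CDH1 passed as higher with the batch term, with 666 and 517 CPM in PC9R against 362 and 387 CPM in PC9 (edgeR adjusted p = 0.0474). The lung factor NKX2-1, which has more than 1 accession, had 1 count in all 4 libraries together. Leukocyte markers summed to at most 0.370 CPM in any library. Endothelial markers summed to 46.8 and 20.0 CPM in PC9R against 22.4 and 12.7 CPM in PC9. The 5 fibroblast markers summed to 64.3 and 13.8 CPM in PC9R against 24.2 and 6.07 CPM in PC9, nearly all of it from COL1A1, while DCN was at 0. With the batch term COL1A1 (log2 fold change 1.31, edgeR adjusted p = 0.00642) and the endothelial CDH5 (0.91, edgeR adjusted p = 0.0371) passed as higher in PC9R. The endothelial PECAM1 and VWF did not pass. The part of these markers in the results was not tested.

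**Figure D1:**
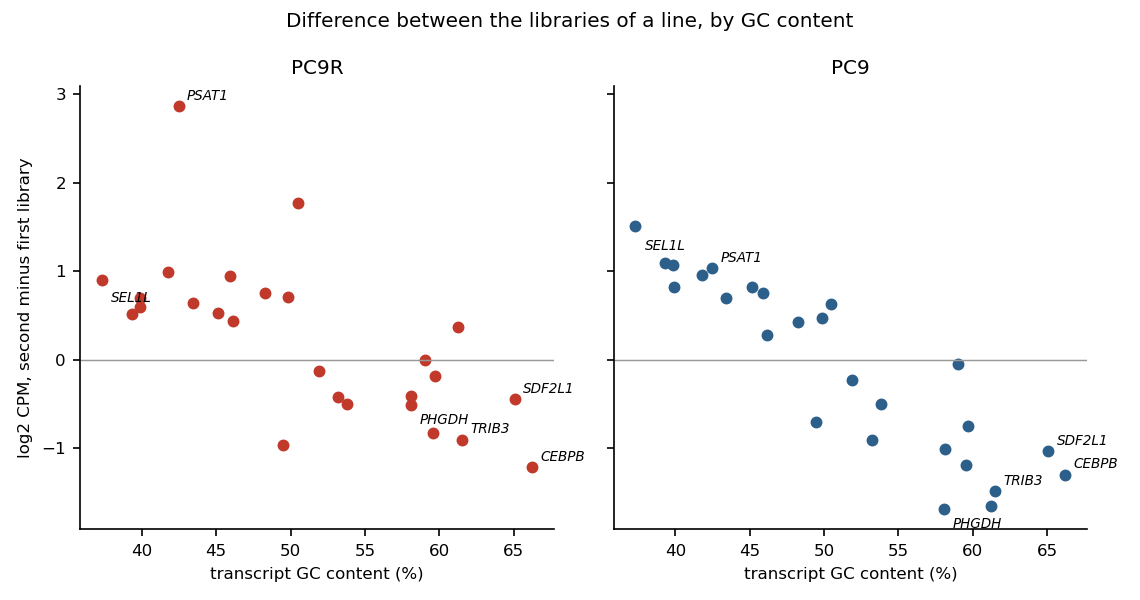
Difference in log2 CPM between the second and the first library of each line (y axis) against transcript GC content in percent (x axis), for the 26 genes tested, with PC9R on the left and PC9 on the right and each point 1 gene. Most AT-rich genes sit above 0 and most GC-rich genes below it in both lines, CHAC1 in PC9R being an exception, with Pearson's r of -0.672 in PC9R and -0.907 in PC9.

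The same gradient ran through the 26 genes. Across them, transcript GC content and the second-minus-first difference had Pearson's r of -0.672 in PC9R and -0.907 in PC9, given as a description because the genes share their libraries. CEBPB, at 66.2% GC, was lower in the second library of each line. HSP90B1, at 41.8% GC, was higher in the second library of each line. PSAT1 in PC9R was the widest apart, with a second-minus-first difference of 2.87.

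Among the ER chaperones and folding enzymes, 9 of the 11 genes tested had a negative fold change and 4 passed with the batch term, all lower in PC9R. Over all genes tested, 6405 of 12660 had a negative fold change in that fit and 9.57% passed as lower. SDF2L1, an ER co-chaperone that works with the Hsp70 chaperone BiP, had 41.2 CPM (counts per 1000000, scaled by TMM) in the first and 30.2 CPM in the second PC9R library, against 153 and 74.7 CPM in PC9. Both PC9R libraries lay below both PC9 libraries. Its log2 fold change was -1.60 ± 0.23 (SE, n = 2 libraries per line) with the batch term (edgeR adjusted p = 0.00284, 3.04-fold lower) and -1.67 ± 0.61 without it (edgeR adjusted p = 0.491). In bulk RNA of a line, fewer cells that express a gene and less of its RNA per cell cannot be told apart.

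MANF, a secreted ER stress protein that binds BiP, had 62.7 and 103 CPM in PC9R against 126 and 176 CPM in PC9, and the groups did not overlap. Its log2 fold change with the batch term was -0.89 ± 0.20 (edgeR adjusted p = 0.0157). CANX, the membrane lectin chaperone calnexin, had 20.9 and 33.9 CPM in PC9R against 35.8 and 63.2 CPM in PC9, also without overlap, for a log2 fold change of -0.84 ± 0.21 with the batch term (edgeR adjusted p = 0.0269). All CANX counts came from 1 of its 2 transcript accessions. HSP90B1, which encodes the ER Hsp90 chaperone GRP94, had 954 and 1898 CPM in PC9R against 1473 and 2855 CPM in PC9. The lines overlapped because the second library exceeded the first in each, and PC9R was lower by a similar amount in the first (-0.63) and the second (-0.59) libraries. Its batch-term log2 fold change was -0.61 ± 0.17 (edgeR adjusted p = 0.0346).

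CALR, the soluble lectin chaperone calreticulin, showed the same size of difference in both library numbers but did not pass. It had 1881 and 1327 CPM in PC9R against 2707 and 1913 CPM in PC9, without overlap, and its log2 fold change was -0.53 ± 0.16 with the batch term (edgeR adjusted p = 0.0556). With a correction for GC content added to the batch term it was -0.56 and passed (edgeR adjusted p = 0.0460). HSPA5, which encodes BiP, the chaperone most often used as a marker of the response, had 759 and 1024 CPM in PC9R against 984 and 1198 CPM in PC9. The lines overlapped, and its log2 fold change of -0.30 ± 0.17 with the batch term did not pass (edgeR adjusted p = 0.249).

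The remaining folding genes did not pass in either fit. DNAJC3, the co-chaperone p58IPK, DNAJB11, an Hsp40 partner of BiP, and PDIA3, a disulfide isomerase for glycoproteins, had batch-term log2 fold changes of -0.49, -0.29 and -0.26. PDIA4, another disulfide isomerase, had 987 and 902 CPM in PC9R against 842 and 719.8 CPM in PC9, so that both PC9R libraries were the higher ones, with a log2 fold change of 0.28 ± 0.17 (edgeR adjusted p = 0.284). DNAJB9, a co-chaperone that restrains IRE1, had 19.2 and 35.9 CPM in PC9R against 10.8 and 30.9 CPM in PC9, with overlap, and a log2 fold change of 0.52 ± 0.24 (edgeR adjusted p = 0.164). PDIA6 stayed under 1 CPM in every library and was not tested. Per kilobase of transcript, and among genes with 1 accession only, the highest mean level of the group was that of CALR, at 844 CPM per kb in PC9R and 1215 CPM per kb in PC9, followed by HSP90B1 at 513 and 778 CPM per kb.

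**Figure D2:**
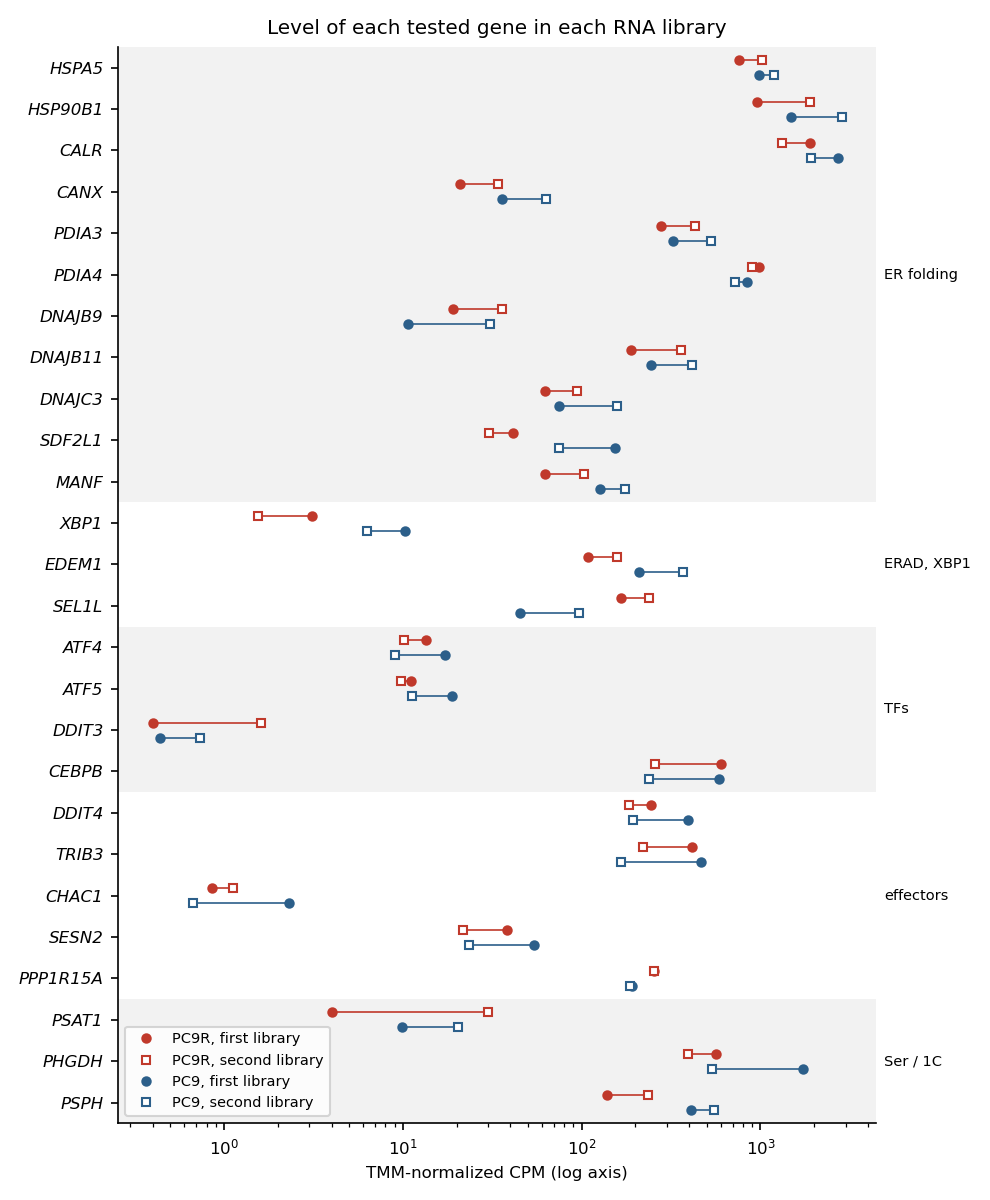
TMM-normalized CPM on a log axis for each of the 26 genes tested, with PC9R (red) above PC9 (blue) in each row, circles for the first and squares for the second library, and a line joining the libraries of a line. SDF2L1, MANF, CALR, CANX, XBP1, EDEM1, PSPH and ATF5 have both PC9R libraries below both PC9 libraries, and PDIA4, SEL1L and PPP1R15A have both above.

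Of the 26 genes, 8 had both PC9R libraries below both PC9 libraries (30.8%, against 14.9% of all genes tested), and 3 had both above, against 16.9% of all genes. PC9R was lower within the first and within the second libraries for 16 genes, against 37.4% of all genes. It was higher within both for 5 genes, against 36.6% of all genes, and 5 differed in direction between first and second.

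The promoters below are shown because they carry an element through which ATF6 and XBP1 are known to raise genes of this response. The ER stress response element (ERSE) was searched on both strands as CCAAT followed, after any 9 bases, by CCACG, in the 250 bases before the canonical start of each gene, read from the GRCh37 genome with starts of GENCODE 44. It occurred in 6 of the 32 promoters (18.75%), against 21 of 20136 protein-coding promoters (0.104%), these 6 among them. ERSE-II, searched as ATTGG followed, after any 1 base, by CCACG, occurred in 2 of the 32 against 0.0646% of all. The 32 genes were listed as targets or components of this response, so these contrasts depend on how the list was made. The matches are in capitals, each line reads 5′ to 3′ in the direction of the gene, and a match on the other strand reads as the reverse complement.
HSPA5, chr9:128003655-128003703, minus strand: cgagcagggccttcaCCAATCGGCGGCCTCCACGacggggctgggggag
HSP90B1, chr12:104323979-104324132, plus strand: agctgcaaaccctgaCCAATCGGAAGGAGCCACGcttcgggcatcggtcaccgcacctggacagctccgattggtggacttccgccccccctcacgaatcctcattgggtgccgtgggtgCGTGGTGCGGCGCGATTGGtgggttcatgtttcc
CALR, chr19:13049183-13049231, plus strand: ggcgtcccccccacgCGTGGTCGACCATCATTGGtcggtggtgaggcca
CANX, chr5:179125764-179125812, plus strand: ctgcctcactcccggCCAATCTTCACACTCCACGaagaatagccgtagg
PDIA6, chr2:10952964-10953012, minus strand: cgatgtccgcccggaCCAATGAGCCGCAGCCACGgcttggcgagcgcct
XBP1, chr22:29196576-29196624, minus strand: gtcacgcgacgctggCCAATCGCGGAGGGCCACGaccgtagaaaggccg
SDF2L1 (ERSE-II), chr22:21996388-21996428, plus strand: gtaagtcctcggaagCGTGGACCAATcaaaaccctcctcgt
HERPUD1 carries the other ERSE-II. Of the 6 ERSE genes, PDIA6 was not tested in the RNA. The other 5 had negative fold changes within both library numbers, as did 37.4% of all genes tested. With the batch term CANX, HSP90B1 and XBP1 passed as lower, against 9.57% of all genes, and HSPA5 and CALR did not pass. The difference between these genes was not tested.

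DHS peaks mark stretches of DNA that nucleases can reach, as at bound promoters. A DHS peak covered the whole ERSE of 1 of the 6 genes in PC9R (HSP90B1) and of 4 of the 6 in PC9 (HSPA5, HSP90B1, CALR and CANX). In the other 15 promoters with an ERSE the count was 5 in PC9R and 5 in PC9. Counted from the start of the gene record, the HSPA5 peak ran from base 30 to base 331 in PC9R and from base -225 to base 218 in PC9. The CALR peak ran from base 105 to base 359 in PC9R and from base -343 to base 159 in PC9. Where peaks lay over a fixed base 100 bases upstream of the canonical start, 9 of the 32 genes were covered in PC9R and 19 in PC9, against 12.1% and 15.7% of protein-coding promoters. At 100 bases downstream, 16 of the 32 were covered in PC9R and 12 in PC9, against 20.0% and 15.5%. These positions were chosen after the peak maps were seen. With 1 peak list per line and mark there is no replicate check and no test, and the lists differ in size, with 59600 DHS peaks in PC9R and 19648 in PC9.

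Of the 4 genes for ER-associated degradation and XBP1, 3 were tested and all 3 passed with the batch term, 2 lower and 1 higher in PC9R. Over all genes tested, 9.57% passed as lower and 11.2% as higher. XBP1, the transcription factor made active by IRE1 splicing, had 3.10 and 1.55 CPM in PC9R against 10.3 and 6.27 CPM in PC9, without overlap. Its log2 fold change was -1.85 ± 0.29 with the batch term (edgeR adjusted p = 0.00417, 3.60-fold lower) and -1.82 ± 0.69 without it (edgeR adjusted p = 0.534). Its accession for the spliced form was listed at 0 in all 4 libraries, so all its counts came from the other one. The sources used here do not give how reads shared by accessions were counted. Its low level was therefore not read as low expression, and its fold change may not be that of all XBP1 RNA. Splicing was not measured. EDEM1, which hands misfolded glycoproteins to degradation, had 109 and 158 CPM in PC9R against 209 and 370.3 CPM in PC9, again without overlap. Its batch-term log2 fold change was -1.08 ± 0.19 (edgeR adjusted p = 0.00685), and -1.12 ± 0.56 without the term (edgeR adjusted p = 0.803).

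SEL1L, the adaptor of the HRD1 ubiquitin ligase at the ER membrane, went the other way. It had 166 and 238 CPM in PC9R against 45.1 and 96.4 CPM in PC9, and both PC9R libraries lay above both PC9 libraries. Its log2 fold change was 1.59 ± 0.22 with the batch term (edgeR adjusted p = 0.00237, 3.01-fold higher) and 1.51 ± 0.60 without it (edgeR adjusted p = 0.596). Nearly all of its counts came from 1 of its 2 accessions. Within 1 kb of the SEL1L start there was a DHS peak in PC9R and none in PC9. The PC9R peak, chr14:81999823-82000431, spanned 609 bp over the gene start and ranked 1112 among the 59600 PC9R peaks by the authors' score, in the top 1.87%. HERPUD1, an ER membrane partner of the same ligase, had no count in any library. All 3 of its accessions were at 0, and a count of 0 allows up to 3 counts per library, from 0.0854 to 0.200 CPM, of reads counted. Since the counting of shared reads is not given, this was not read as a limit on HERPUD1 expression. Its promoter had a DHS peak in both lines, ranked 541 of 59600 in PC9R and 7138 of 19648 in PC9.

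**Figure D3:**
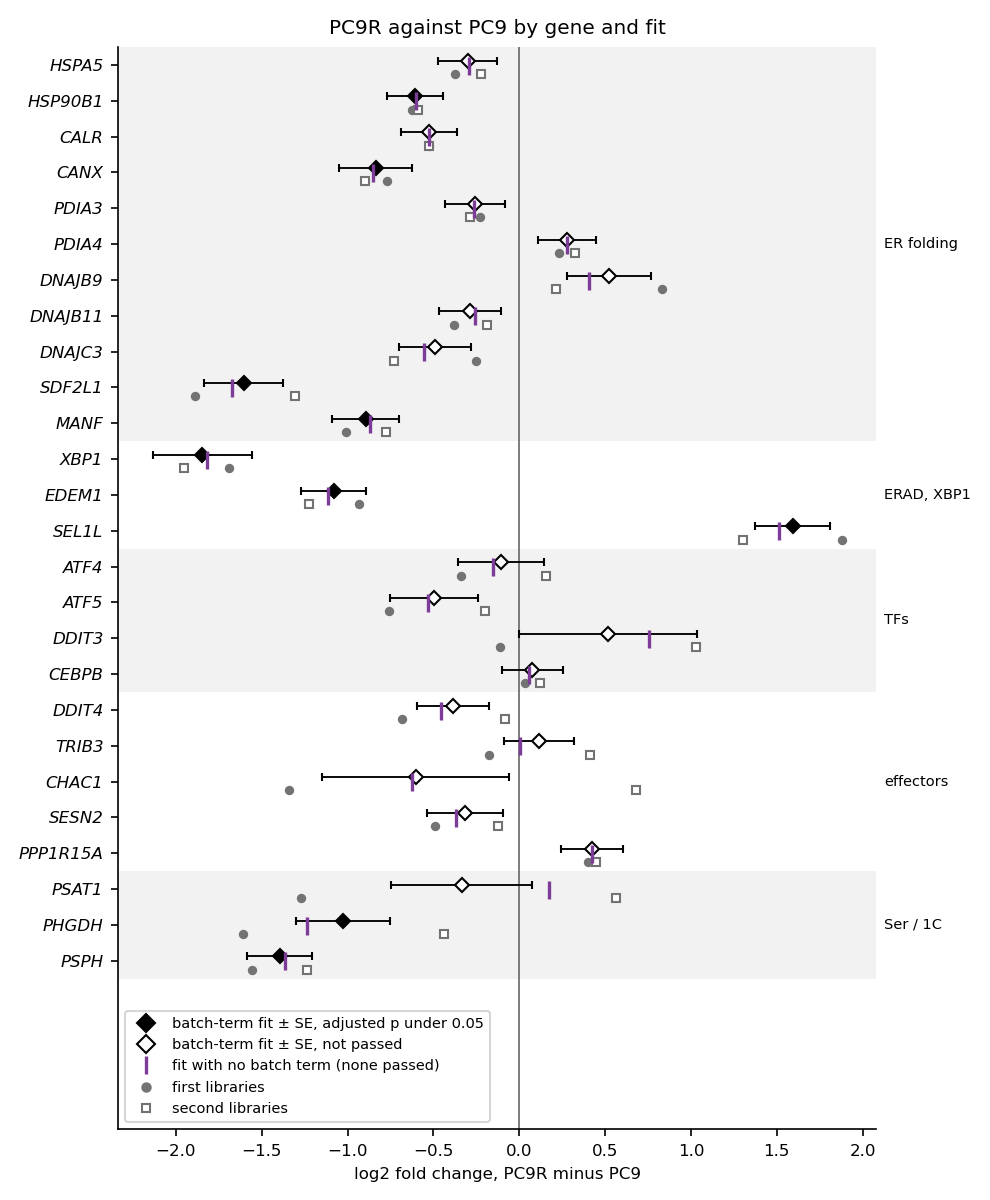
Log2 fold change, PC9R minus PC9, of the 26 genes tested (x axis), by role. Diamonds with bars give the batch-term fit ± SE, filled where the adjusted p was under 0.05, purple ticks the fit with no batch term, and grey circles and squares the differences within the first and the second libraries. Filled diamonds lie left of 0 for SDF2L1, MANF, CANX, HSP90B1, XBP1, EDEM1, PHGDH and PSPH and right of it for SEL1L.

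No transcription factor of the response passed in either fit, and the 4 tested had a median log2 fold change of -0.02 with the batch term. ATF4, the central activator of the amino acid response, had 13.6 and 10.1 CPM in PC9R against 17.2 and 9.08 CPM in PC9, with overlap and with opposite directions in the first and the second libraries. Its log2 fold change was -0.11 ± 0.25 with the batch term (edgeR adjusted p = 0.790). All its counts came from 1 of its 2 accessions. ATF4 acts mainly through changes in its translation, which were not measured. ATF5, an ATF4 relative, had 11.1 and 9.75 CPM in PC9R against 18.9 and 11.2 CPM in PC9, without overlap, and its log2 fold change of -0.50 ± 0.26 did not pass (edgeR adjusted p = 0.203). CEBPB, a partner of ATF4, had 599.9 and 258 CPM in PC9R against 586 and 238 CPM in PC9, so the difference between library numbers was far wider than that between lines. DDIT3, which encodes CHOP, had 0.399 and 1.61 CPM in PC9R against 0.439 and 0.734 CPM in PC9, all from 1 of its 6 accessions. ATF3, an early stress factor, had 2 counts and 1 count in PC9R and none in PC9, and was not tested.

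The stress effectors also gave no call. TRIB3, a pseudokinase induced by ATF4 and CHOP, averaged 317 ± 136 CPM in PC9R and 317 ± 213 CPM in PC9 (SD, n = 2 each). PPP1R15A, which encodes GADD34 and returns eIF2-alpha to its unphosphorylated form, was the only effector with separate groups. It had 254 and 253 CPM in PC9R against 192 and 186 CPM in PC9, with a log2 fold change of 0.42 ± 0.18 that did not pass (edgeR adjusted p = 0.134). DDIT4, an inhibitor of mTORC1 also known as REDD1, had 245 and 184 CPM in PC9R against 393 and 195 CPM in PC9. SESN2, a leucine sensor that also restrains mTORC1, had 38.4 and 21.6 CPM in PC9R against 54.1 and 23.6 CPM in PC9. CHAC1, which degrades glutathione, had 0.854 and 1.13 CPM in PC9R against 2.32 and 0.667 CPM in PC9, all from 1 of its 2 accessions. These last 3 genes overlapped between lines, and the sign of each changed when 1 library was left out.

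Of the 6 enzymes of serine, asparagine and one-carbon metabolism, 3 were tested. With the batch term 2 passed, both lower in PC9R, against 9.57% of all genes. These 2 enzymes stand at the first and the last step of serine synthesis. PSPH, which releases serine from phosphoserine, had 139 and 234 CPM in PC9R against 409 and 551 CPM in PC9, without overlap. Its log2 fold change was -1.40 ± 0.19 with the batch term (edgeR adjusted p = 0.00223, 2.63-fold lower) and -1.36 ± 0.54 without it (edgeR adjusted p = 0.581). PHGDH, which starts the pathway from 3-phosphoglycerate, had 566 and 395 CPM in PC9R against 1729 and 536 CPM in PC9. Its difference was wide in the first libraries (-1.61) and narrow in the second (-0.44), and the second PC9 library lay below the first PC9R library. The batch-term log2 fold change was -1.03 ± 0.27 (edgeR adjusted p = 0.0327). Without the first PC9 library and with no batch term, it was -0.17.

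PSAT1, the middle enzyme of serine synthesis, had 4.04 and 30.1 CPM in PC9R against 9.91 and 20.4 CPM in PC9. PC9R was thus lower in the first libraries (-1.27) and higher in the second (0.56), and neither fit called it. All PSAT1 counts came from 1 of its 2 accessions. ASNS, asparagine synthetase, stayed under 1 CPM in every library. SHMT2 and MTHFD2, the mitochondrial one-carbon enzymes, were at 0 in all 4 libraries. SHMT2 has 9 accessions and ASNS has 6, while MTHFD2 has 1 in the files. Over all genes, the 8198 with more than 1 accession held 6.79% to 7.12% of the matched counts of a library, and a low value of such a gene is not taken as low expression. Among the 19 members with 1 accession, 18 were tested and 6 passed as lower with the batch term (33.3%, against 9.57% of all genes), while 0 passed as higher, against 11.2%.

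The amino acid response element (CARE), through which ATF4 binds, was searched as TGATGNAA in the same 250 bases on both strands. It occurred in HERPUD1, ATF3, CHAC1 and ASNS, 4 of the 32 genes (12.5%), against 2.19% of protein-coding promoters. This contrast, too, depends on how the list was made. The ASNS and CHAC1 elements are shown as the best known of this type, with the match in capitals.
ASNS, chr7:97501766-97501803, minus strand: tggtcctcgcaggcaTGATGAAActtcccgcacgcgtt
CHAC1, chr15:41245445-41245482, plus strand: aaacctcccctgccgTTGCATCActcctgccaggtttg
Of the 4 genes, only CHAC1 was tested in the RNA, and it did not pass. The ASNS element lay inside a DHS peak in PC9R and across the edge of the peak in PC9, and the CHAC1 element was in no DHS peak of either line. PPP1R15A was the only one of the 32 with a cyclic AMP response element, TGACGTCA, which 2.39% of protein-coding promoters hold. The sequence TGACGTGG, the core of the unfolded protein response element, was in none of the 32 windows and in 0.690% of protein-coding promoters.

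Another 69 genes of the pathway were read from the same fits, of which 60 were tested. With no batch term none passed. With the batch term 1 of the 60 passed as higher in PC9R (1.67%, against 11.2% of all genes) and 5 as lower (8.33%, against 9.57%), so the share of lower calls was near that of all genes. Their median log2 fold change was -0.07 with the batch term. Among 10 sensors and kinases, ATF6, the sensor that is itself a transcription factor, was higher, with 153 and 235 CPM in PC9R against 83.2 and 164 CPM in PC9 and a log2 fold change of 0.70 ± 0.20 (edgeR adjusted p = 0.0385). Of 21 other ER stress genes, PDIA5, a disulfide isomerase, was lower, with 5.21 and 3.57 CPM in PC9R against 10.3 and 7.81 CPM in PC9 (log2 fold change -1.05 ± 0.26, edgeR adjusted p = 0.0261). The 11 aminoacyl-tRNA synthetases and export factors had 9 negative fold changes, against 6405 of all 12660 genes, and 1 call, a lower one. That was YARS1, the tyrosyl-tRNA synthetase, with 232 and 441 CPM in PC9R against 710.3 and 708 CPM in PC9 (log2 fold change -1.15 ± 0.24, edgeR adjusted p = 0.0142).

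Of 18 other ATF4 targets, 3 passed as lower with the batch term (16.7%, against 9.57% of all genes), and 9 had a negative fold change, against 6405 of all 12660 genes. SLC1A4, a carrier of serine and other small neutral amino acids, had 4.36 and 2.68 CPM in PC9R against 12.5 and 5.21 CPM in PC9. GDF15, a stress-induced secreted factor, had 19.3 and 8.08 CPM in PC9R against 54.3 and 11.1 CPM in PC9. JDP2, a repressor of the AP-1 family, had 3.22 and 1.07 CPM in PC9R against 9.16 and 1.87 CPM in PC9. PC9R was lower in both library numbers for all 3, and the groups overlapped for GDF15 and JDP2.

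The genes called lower lay among neighbours whose median fold change was often negative too. For each gene, the neighbours were the other tested genes starting within 2.5 Mb, read from the batch-term fit. PSPH, chr7:56078744-56119297, had 11 neighbours with a median log2 fold change of -1.33, and 10 of them were called lower. SDF2L1, chr22:21996591-21998588, had 56 neighbours with a median of -1.19, of which 36 were called lower. XBP1, on the same chromosome at chr22:29190543-29196585, had 44 neighbours with a median of -0.97, of which 20 were called lower and 4 higher. MANF, chr3:51422722-51426828, had 88 neighbours with a median of -0.71, of which 41 were called lower. CANX, EDEM1 and PHGDH had neighbour medians of -0.47, -0.46 and -0.50, with fewer neighbours called. For CANX 9 of 42 neighbours were called lower and 1 higher. For EDEM1 1 of 5 was called lower, and for PHGDH 2 of 10.

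HSP90B1, chr12:104323885-104347709, differed from these, with a neighbour median of -0.03 over 25 genes. SEL1L, chr14:81937891-82000197, had 2 tested neighbours with a median of -1.11, opposite to its own direction. Over all 11811 tested genes with at least 5 neighbours, the neighbour median was -0.03, and over the 1127 of them called lower it was -0.42. The median difference between a tested member and its neighbours was -0.28, and this was not computed over all genes tested. Among the 8 members called lower it ran from -0.88 for XBP1 to -0.06 for PSPH. The part of the chromosome region in these fold changes was not tested.

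**Figure D4:**
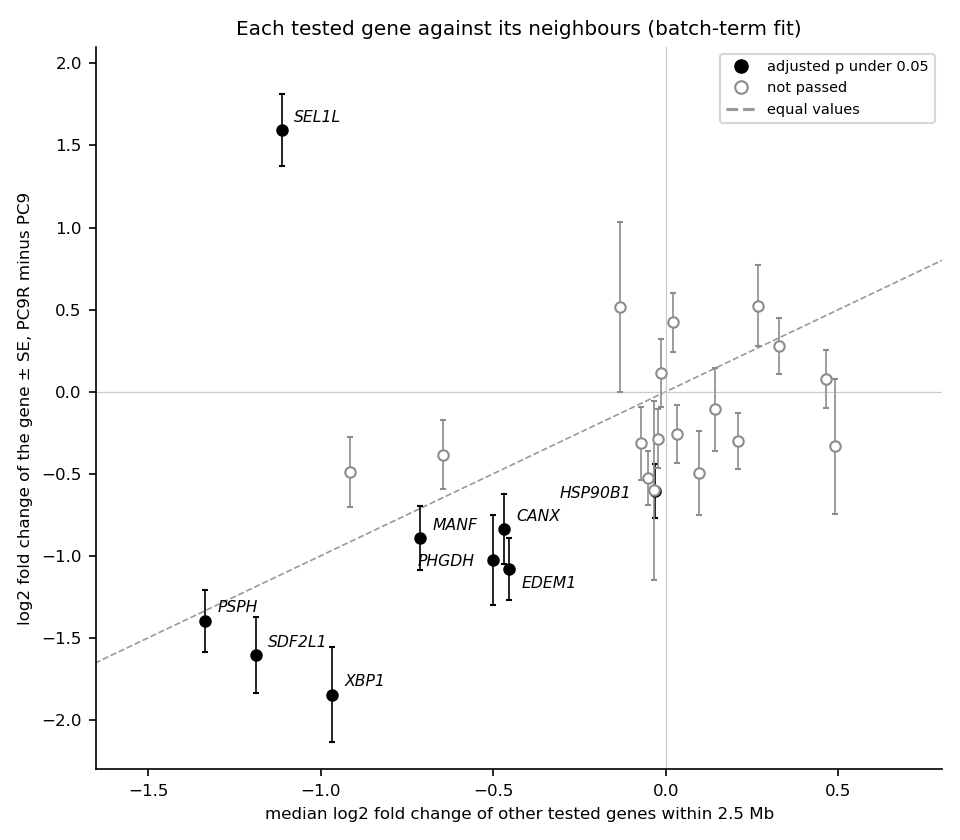
Log2 fold change ± SE of each of the 26 genes tested (y axis) against the median log2 fold change of the other tested genes within 2.5 Mb (x axis), both PC9R minus PC9 from the batch-term fit. Filled points passed the test. PSPH, at -1.40 beside a neighbour median of -1.33, lies close to the dashed line of equal values, while SEL1L lies far above it.

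H3K4me2 is a histone mark of promoters and enhancers. A peak lay within 1 kb of the start of the gene record in both lines for 29 of the 32 genes, against 85.1% of the 12053 tested genes with a position (86.8% in PC9R and 87.0% in PC9). None of the 32 had one in a single line, against 1.66% of tested genes in PC9R only and 1.88% in PC9 only. The other 3 (11.3% of tested genes had none), PDIA6, ATF3 and MTHFD2, have records that begin far upstream of their canonical start. The same holds for CANX, TRIB3, PHGDH and, by a shorter distance, DNAJB11, all counted among the 29. The promoter DHS and H3K4me2 peaks counted for these genes lie near the record start and not the canonical start. All 32 genes had an H3K4me2 peak in both lines near at least 1 annotated start. The extent of the peaks differed between lines more than their presence, among the members and in the background alike. The base 100 bases downstream of the canonical start was covered at 20 of the 32 genes in PC9R and 29 in PC9, against 40.8% and 58.0% of protein-coding promoters. At 100 bases upstream, 6 of the 32 were covered in PC9R and 8 in PC9, against 31.0% and 39.6%, so there the members were below the background. Among genes with a peak, H3K4me2 peaks covered a median of 1316 bp within 1 kb of the start in PC9R and 1735 bp in PC9 for the members, and 1151 bp and 1644 bp over tested genes. DHS peaks lay at 24 of the 32 in PC9R, against 49.1% of tested genes, and at 22 in PC9, against 42.0%. They were present in both lines at 20 genes, against 32.2%.

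At DNAJB11, SEL1L, ATF3 and PSAT1 PC9R alone had a DHS peak, 4 of 32 against 16.9% of tested genes. By the authors' score the best of these peaks ranked 57827, 1112, 35271 and 16934 of 59600, in that order of genes. At MANF and SESN2 PC9 alone had a DHS peak, 2 of 32 against 9.77%. Counted near any annotated start, 2 genes had a peak in PC9R only and 3 in PC9 only, and the totals were 24 in PC9R and 25 in PC9, so the order of the lines turned. At ATF3, whose record begins far upstream, DHS peaks of both lines covered a CARE at the canonical start. The MANF peak, chr3:51422406-51422608, ranked 12003 of 19648 in PC9, and the SESN2 peak ranked 11103. At PDIA3, PDIA6, CEBPB, CHAC1, SHMT2 and MTHFD2 neither line had one, against 41.1% of tested genes. When the upper-scoring part of each list alone was kept, split at its median score, 17 of the 32 had a DHS peak in PC9R and 19 in PC9, which also turned the order.

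The best-scored promoter DHS peak of a member had a median width of 231.5 bp in PC9R and 452 bp in PC9, while over tested genes the medians were 281 bp and 267 bp. PSPH held the highest-ranked promoter peak of the 32 in both lines, at rank 190 of 59600 in PC9R and 102 of 19648 in PC9. Its score was 26.1 in PC9R, with a second peak at 14.0, and 46.8 in PC9. The PC9R peaks spanned 213 bp and 443 bp, and the PC9 peak 783 bp. Ranks and scores come from lists of unlike size and an unstated scale, so the lines were not compared by them. At XBP1 the PC9R peak ran from base 179 to base 352 of the gene record and ranked 55730. The PC9 peak at XBP1 ran from base -303 to base -28, just upstream of the ERSE, and ranked 711 of 19648.

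**Figure D5:**
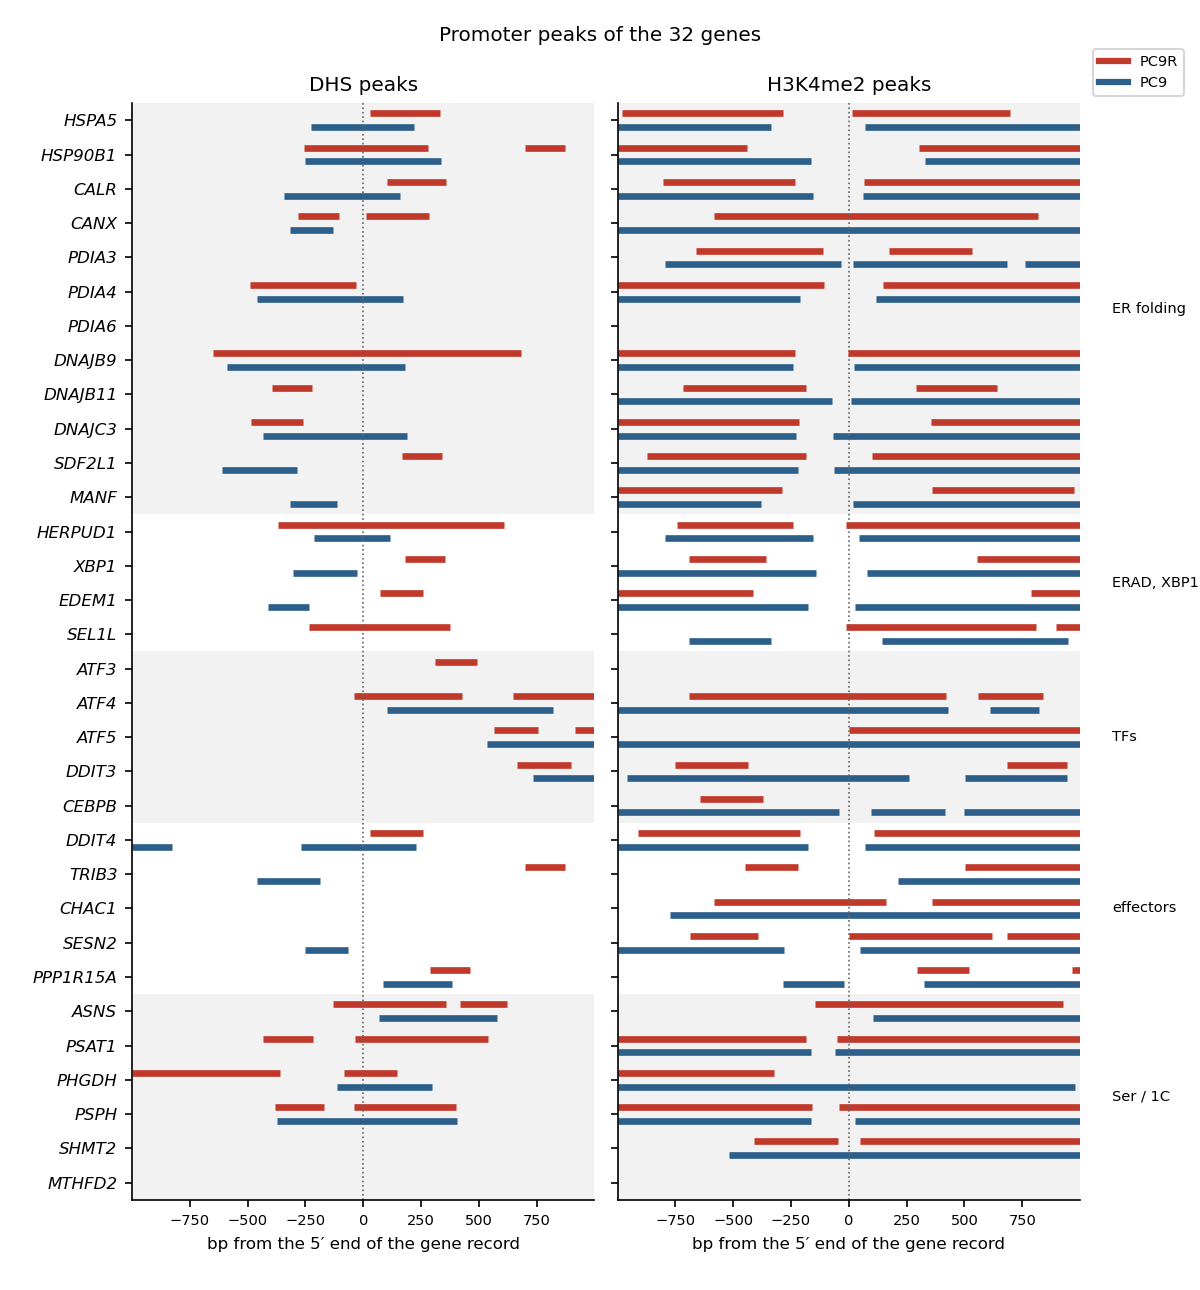
Promoter DHS peaks (left) and H3K4me2 peaks (right) of the 32 genes, as bars over the distance in bp from the 5′ end of the gene record, with PC9R (red) above PC9 (blue) in each row. DHS bars are present in both lines at 20 genes and H3K4me2 bars in both at 29, and at HSPA5 and CALR the PC9R bar lies after the start while the PC9 bar spans it.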

How the data were processed

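RNA-seq, DHS and H3K4me2 data of PC9R and PC9 cells were assigned to groups by sample title. The authors deposited raw counts for each of 42811 RefSeq accessions, and 1 peak list per DHS or H3K4me2 library. Each peak has a score set by the authors on an unstated scale. The submitters' processing notes name MACS2, TopHat, HTSeq, DESeq and hg19, without version or role. The sources used here do not give control libraries, peak thresholds, strand or the treatment of shared reads.

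The genes and lists were chosen with earlier results of these data known. Counts were summed per gene, with names for 41552 accessions from RefSeq (GRCh38.p14, names only), and the other 1259 accessions kept as features of their own. Fold changes and two-sided tests came from edgeR 4.0.16 in R 4.3.3 (TMM, filterByExpr, quasi-likelihood test, adjustment by Benjamini-Hochberg, threshold 0.05) over 12660 features with no block, and again with the library number as a batch term. The SE is the log2 fold change over the square root of the F statistic. Within-number differences use log2(CPM + 0.1). DESeq2 1.42.0 and limma 3.58.1 were alternatives. The smallest two-sided exact permutation p for 2 against 2 is 0.333, so none is given for single genes. The fits were run on simulated counts, drawn with a library-number effect and a spread near that of the batch-term fit (coefficient of variation 0.180). Those counts share the form of that fit and hold no GC gradient, so they cannot show whether its calls in the real data are right. The library number comes from the title or the accession order and marks no stated pairing. The second-minus-first differences of the 2 lines had a correlation of 0.788 over tested genes.

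Gene starts and promoter sequences came from GENCODE 44 lifted to GRCh37 and the GRCh37 genome. A promoter peak overlaps the 1 kb on either side of the gene start by at least 1 bp. All 32 genes are described. Of the other lists, the genes named are those called with the batch term and of the same sign in both library numbers, up to 4 per direction and list. Of the genes called lower with the batch term, HSP90B1 overlaps UQCC6 and TTC41P, and CANX overlaps CBY3, on the other strand. XBP1 and PSPH have a pseudogene by name, and HSPA5, PDIA3, ATF4 and PSAT1 do as well, so reads could be split or shared there.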

Additional observations from a re-analysis of the deposited data

How the results depend on the processing

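None of the 26 tested genes passed under RLE or upper quartile scaling, either filter, DESeq2, limma-voom, the accession with the most counts in place of the sum, or without any 1 library, all with no batch term. Leaving out 1 library leaves a line with 1 sample, which is assumed to vary like the other line. With the library number as a replicate block, 8 were called lower and 1 higher, and with GC correction added 9 and 1; the block changed no call of the other 17. The library number is not a stated pairing, since the labels share only a number. The 69 other genes gave 1 higher and 5 lower with the block, and 5 and 8 with GC correction. Over all genes, 32 calls (24 higher, 8 lower) became 2631 with the block (1420 and 1211), 2783 with GC correction (1472 and 1311), 440 with no filter (312 and 128), 381 by DESeq2 (261 and 120) and 73 by limma-voom (54 and 19). They became 0 (0 and 0) with upper quartile scaling, where 919 genes had an unadjusted p under 0.05, and 0 (0 and 0) with the stricter filter, where 431 did. The cause was not tested. Without 1 library, calls over all genes ranged from 83 to 254 (58 to 216 higher, 25 to 43 lower).

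The median log2 fold change over the 26 genes ranged from -0.54 to -0.22 without 1 library. For ER chaperones it was -0.42 with the block and GC correction and ranged from -0.82 to -0.12 without 1 library. The other ranges were -1.43 to -0.67 for degradation and XBP1, -0.52 to 0.39 for transcription factors, -0.88 to 0.44 for effectors and -1.41 to -0.26 for the enzymes. Of the 26 genes, 14 kept their sign under every alternative run. The sign of ATF4, CEBPB, CHAC1, DDIT3, DDIT4, DNAJB11, DNAJB9, DNAJC3, PDIA3, PSAT1, SESN2 and TRIB3 changed under at least 1. PDIA6, HERPUD1, ATF3, ASNS, SHMT2 and MTHFD2, all under 1 CPM or at 0, were not tested. Of these, 5 have more than 1 accession, MTHFD2 being the exception. The parts of depth and of the counting of shared reads in their low values were not tested.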
